A study of Mus musculus with 24 samples.

Results

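The 10 genes described here act in the sensing of nucleic acids in the cytosol: Ddx58, Ifih1, Dhx58, Zbp1, Tmem173, Mb21d1, Trex1, Samhd1, Adar and Aim2. They were chosen by name, from the gene name that the array files give for each probe, and all 10 of them were among the 15787 genes tested. Blood RNA of male C57BL/6J mice was measured on 24 one-colour Agilent arrays, 24 h after x-rays or no exposure. The groups were Gadd45aKO after 7 Gy with 9 arrays, Gadd45aKO at 0 Gy with 5 arrays, Gadd45aWT after 7 Gy with 5 arrays, and Gadd45aWT at 0 Gy with 5 arrays. The stated topic is how Gadd45a, known as a suppressor of autoimmunity, affects the use of blood transcripts as a measure of radiation dose. The labels do not give the ages of the mice, how the deletion was made, or which animal stands behind an array. The design text speaks of independent experiments but no label ties an array to an animal; p-values therefore reflect only how far these arrays spread, and some of that spread may be technical.

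Cells carry separate alarm systems for RNA and DNA in the wrong place. RNA in the cytosol is bound by the helicases RIG-I and MDA5, which signal through the adaptor MAVS to switch on type I interferons. DNA is bound by cGAS, which makes a cyclic dinucleotide that activates STING. A further set of enzymes removes or edits the cell's own nucleic acids so that these alarms stay silent, and many of the sensors are themselves raised by interferon.

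Levels are given as log2 signal relative to the 75th percentile of each array, the percentile being taken over 7857 probes that were well above background on all arrays. A level of 0 therefore lies at that percentile, and levels of different probes are not compared with each other. Differences are log2 differences with their standard error from limma, and a gene is called changed where its Benjamini-Hochberg adjusted p over all 15787 genes was under 0.05. Of 18 probes for the 10 genes, 15 were well above background on at least 5 arrays and were kept, and the brightest kept probe stands for its gene.

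Several facts of the whole data set touch these results. The probe for Gadd45a averaged 0.51 ± 0.16 in Gadd45aKO blood at 0 Gy (SD, n = 4), against 0.65 ± 0.23 in Gadd45aWT blood at 0 Gy (SD, n = 5), with a limma adjusted p of 0.855. At 7 Gy it averaged 0.00 ± 0.34 in Gadd45aKO blood (SD, n = 9), against -1.21 ± 0.32 in Gadd45aWT blood (SD, n = 5), and was the higher by 1.20 ± 0.17 (adjusted p = 4.78e-05). The probe thus did not bear out the genotype labels, and the 2 genotypes are called KO-labelled and WT; whether it lies in the deleted part of the gene is not given in the sources used here. Replicates 1 and 4 of the KO-labelled 0 Gy group were the most alike pair of any group, with a Pearson r of 0.998, and were averaged into 1 sample, which left 23 samples in the fit. Other arrays were also much alike: averaging all arrays of a group that correlated at 0.99 or more left 6, 4, 2 and 2 samples for KO-labelled 7 Gy, KO-labelled 0 Gy, WT 7 Gy and WT 0 Gy. Slides 1 to 5 held 1 array of each group, with the replicate number the same as the slide number, and slide 6 held KO-labelled 7 Gy replicates 6 to 9 only. Between 25.7% and 50.9% of probes were well above background, and 4 arrays had noisy repeat spots. The log2 SD between repeat spots of 96 probes was 0.281 and 0.284 on KO-labelled 7 Gy replicates 3 and 5, 0.391 on KO-labelled 0 Gy replicate 2 and 0.45 on WT 0 Gy replicate 1, against 0.074 to 0.158 on the other 20 arrays.

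Marker genes show what else changed in this blood. Of 14 B cell markers, 14 fell after 7 Gy in KO-labelled blood and 14 fell in WT blood; Pax5, Fcer2a and Blk were not well above background on any irradiated array. Of 22 hepatocyte markers, 16 rose after 7 Gy in KO-labelled blood and 21 rose in WT blood. The summed hepatocyte signal, in multiples of the 75th percentile, ran from 5.36 to 10.9 in KO-labelled 7 Gy arrays and from 0.814 to 5.62 in KO-labelled 0 Gy arrays. In WT blood it was 10.4 and 10.5 in 7 Gy replicates 1 and 2 and 142, 147 and 154 in 7 Gy replicates 3, 4 and 5, against 1.12 to 1.70 at 0 Gy, where 12 of the 22 markers were not well above background on any array. Blood is a mixture, and fewer cells of a type cannot be told apart here from less RNA per cell.

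The probes that carry the sensor results are 60 bases long, and the first 30 bases of those for Ifih1, and of both probes for Zbp1, Ddx58 and Adar, are shown because these pairs did not always give the same answer. They are written 5′ to 3′ as in the array files, whose coordinates are in mm9. Ifih1 was read at chr2:62435507-62435566 on the minus strand. The brighter Zbp1 probe, designed on transcript variant 2, lies at chr2:173039307-173039366 and the dimmer one, on transcript variant 1, at chr2:173032258-173032317, both on the minus strand. The brighter and dimmer Ddx58 probes lie at chr4:40151893-40151952 and chr4:40151133-40151192 on the minus strand. Those for Adar lie at chr3:89555266-89555325 and chr3:89557158-89557217 on the plus strand.
Ifih1: actaccacacagtcatggattaaaacctca
Zbp1, brighter: caagctggtcttgaacccacagagatcttc
Zbp1, dimmer: acagatgtgacatgaaagtacatgtaacac
Ddx58, brighter: gttgaaattaaaatctttcaccatgcctgg
Ddx58, dimmer: agttcttgatagtggttactggtaaaattc
Adar, brighter: aagtccccacctcccttttctcaagggaag
Adar, dimmer: taatcatgtgtaagaattgtcaatgcttga

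After 7 Gy the genes moved both ways. In KO-labelled blood 4 of the 10 rose (Ifih1, Dhx58, Zbp1 and Trex1) and 4 fell (Tmem173, Samhd1, Adar and Aim2), with Ddx58 and Mb21d1 not called. The call for Aim2 rests on a probe near background, and without that gene 3 fell. In WT blood the same 4 genes rose, Tmem173 fell, and Ddx58, Mb21d1, Samhd1, Adar and Aim2 were not called. Over all genes tested, 47.0% were called in KO-labelled blood and 23.4% in WT blood, so that 8 of 10 and 5 of 10 stand against those shares. Only 12.2% of all genes rose in KO-labelled blood and 10.1% in WT blood, while 34.8% and 13.3% fell. The median difference of the 10 genes was -0.11 in KO-labelled blood and 0.92 in WT blood, beside medians over all genes of -0.26 and -0.05. In KO-labelled blood the shift of all genes depended on scaling: 26.1% of its calls were higher, against 46.7% when the percentile was taken over all probes.

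**Figure D1:**
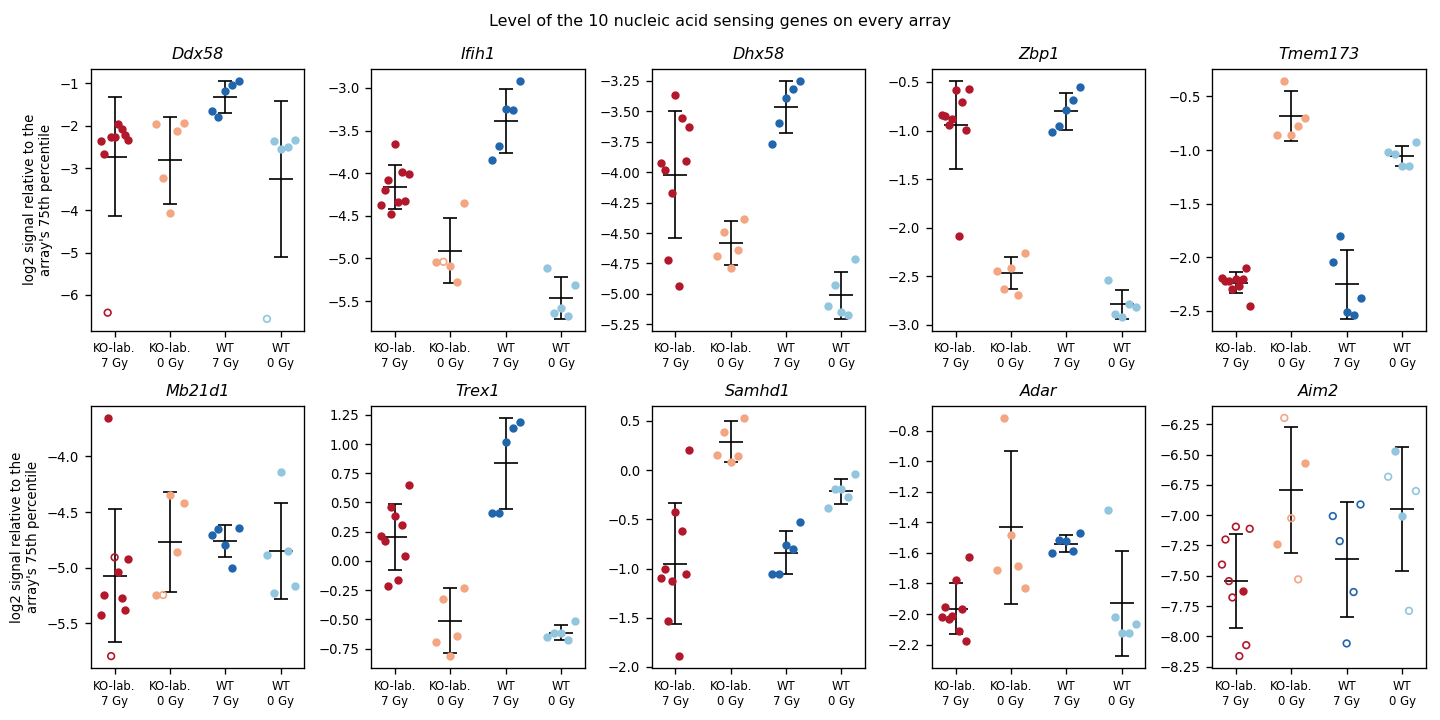
Level of each of the 10 genes on every array (vertical axis, log2 signal relative to the array's 75th percentile; each panel has its own scale), by group from left to right: KO-labelled 7 Gy, KO-labelled 0 Gy, WT 7 Gy and WT 0 Gy. Filled points were well above background and open points were not, and bars give the mean and SD; Zbp1 and Trex1 of irradiated arrays lie above those of unexposed arrays in both genotypes, while Tmem173 lies below.

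Ifih1, which encodes MDA5, the sensor of long double-stranded RNA, rose in both genotypes. Its level in KO-labelled blood was lowest at -4.48, median -4.19 and highest -3.65 after 7 Gy, against -5.04, -5.04, -5.09, -5.27 and -4.35 in replicates 1 to 5 at 0 Gy. In WT blood it was -3.84, -3.68, -3.24, -3.25 and -2.91 after 7 Gy, against -5.12, -5.64, -5.59, -5.68 and -5.31 at 0 Gy. The WT groups did not overlap, whereas KO-labelled 0 Gy replicate 5 lay within the range of the irradiated arrays. The difference was 0.75 ± 0.19 in KO-labelled blood, a fold of 1.68 (limma adjusted p = 0.00291), and 2.08 ± 0.20 in WT blood, a fold of 4.22 (adjusted p = 8.89e-08). Within slides 1 to 5 it ran from 0.67 to 1.01 in KO-labelled blood and from 1.27 to 2.42 in WT blood. The KO-labelled call was lost with normexp background correction (0.91, adjusted p = 0.184). A dimmer Ifih1 probe was not well above background on any array and adds nothing.

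Dhx58, which encodes LGP2, the relative of RIG-I and MDA5 that lacks their signalling domains and tunes them, rose alongside. KO-labelled blood had a lowest level of -4.93, a median of -3.93 and a highest of -3.37 after 7 Gy, against -4.69, -4.49, -4.78, -4.64 and -4.39 at 0 Gy. WT blood had -3.77, -3.60, -3.39, -3.31 and -3.25 after 7 Gy, against -5.10, -4.93, -5.15, -5.18 and -4.71 at 0 Gy. KO-labelled 7 Gy replicates 3 and 6, at -4.72 and -4.93, were as low as unexposed arrays, and the WT groups did not overlap. The difference was 0.56 ± 0.23 in KO-labelled blood (limma adjusted p = 0.047) and 1.55 ± 0.24 in WT blood (adjusted p = 3.88e-05). The KO-labelled value is marginal: leaving out any of 10 single arrays put its adjusted p over the threshold, at 0.0506 to 0.122. The WT call was lost with normexp background correction (1.13, adjusted p = 0.163) and with near-identical arrays averaged (1.54, adjusted p = 0.125).

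Zbp1, the sensor of Z-form nucleic acids that can start necroptosis through Ripk3, rose clearly in both genotypes on its brighter probe. Its levels in KO-labelled blood were lowest at -2.08, median -0.85 and highest -0.58 after 7 Gy, against -2.45, -2.63, -2.42, -2.69 and -2.27 at 0 Gy. In WT blood they were -1.02, -0.95, -0.79, -0.69 and -0.55 after 7 Gy, against -2.54, -2.89, -2.92, -2.79 and -2.82 at 0 Gy. No irradiated array was as low as an unexposed array of its genotype, although KO-labelled replicate 6, at -2.08, stood far below its own group. The difference was 1.53 ± 0.20 in KO-labelled blood (limma adjusted p = 2.85e-06) and 1.99 ± 0.21 in WT blood (adjusted p = 3.11e-07). The dimmer Zbp1 probe, on the other transcript variant, gave 0.85 ± 0.21 in KO-labelled blood and 2.33 ± 0.23 in WT blood.

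Trex1, the DNA exonuclease that clears cytosolic DNA before cGAS can bind it, rose with the RNA sensors. Its level in KO-labelled blood was lowest at -0.21, median 0.21 and highest 0.65 after 7 Gy, against -0.69, -0.33, -0.81, -0.64 and -0.23 at 0 Gy. In WT blood it was 0.41, 0.41, 1.02, 1.14 and 1.19 after 7 Gy, against -0.65, -0.61, -0.61, -0.67 and -0.51 at 0 Gy. Neither pair of groups overlapped. The difference was 0.72 ± 0.18 in KO-labelled blood, a fold of 1.64 (limma adjusted p = 0.00255), and 1.45 ± 0.19 in WT blood, a fold of 2.72 (adjusted p = 5.54e-06). The KO-labelled call was lost with normexp background correction (0.53, adjusted p = 0.207). The WT call was lost with near-identical arrays averaged (1.39, adjusted p = 0.0604).

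Ddx58, which encodes RIG-I, the sensor of RNA ends that carry triphosphates, was not called in either genotype, and single low arrays set its spread. In KO-labelled blood it was lowest at -6.42, median -2.27 and highest -1.96 after 7 Gy, against -1.96, -3.24, -4.07, -2.13 and -1.93 at 0 Gy. In WT blood it was -1.65, -1.80, -1.18, -1.04 and -0.94 after 7 Gy, against -6.57, -2.36, -2.55, -2.51 and -2.34 at 0 Gy. The values of -6.42 and -6.57 belong to KO-labelled 7 Gy replicate 3 and WT 0 Gy replicate 1, both among the arrays with noisy repeat spots, and neither was well above background. The WT groups did not overlap, with a difference of 1.95 ± 0.78 (limma adjusted p = 0.0783), and the KO-labelled difference was 0.09 ± 0.74 (adjusted p = 0.933). Without the 4 noisy arrays the WT difference was 1.12 and was called, with an adjusted p of 0.0167; with the slide as a block it was 1.95 and was called (adjusted p = 0.0482). The dimmer probe gave -0.68 ± 0.26 in KO-labelled blood and 0.97 ± 0.28 in WT blood, and was well above background on 10 of 24 arrays.

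Tmem173, which encodes STING, the adaptor that carries the cGAS signal from the endoplasmic reticulum, fell in both genotypes. KO-labelled blood had a lowest level of -2.45, a median of -2.22 and a highest of -2.10 after 7 Gy, against -0.86, -0.35, -0.86, -0.78 and -0.70 at 0 Gy. WT blood had -2.04, -1.80, -2.51, -2.54 and -2.38 after 7 Gy, against -1.01, -1.04, -1.15, -1.15 and -0.92 at 0 Gy. Neither pair of groups overlapped, and the 9 irradiated KO-labelled arrays lay within a narrow band (SD 0.097). The difference was -1.55 ± 0.14 in KO-labelled blood, 2.94-fold lower (limma adjusted p = 2.03e-08), and -1.20 ± 0.15 in WT blood, 2.29-fold lower (adjusted p = 2.44e-06). The WT call was lost with normexp background correction (-0.80, adjusted p = 0.0773). The 14 B cell markers fell on the same arrays, with median differences of -4.63 in KO-labelled blood and -4.26 in WT blood; their part in the fall of Tmem173 was not tested.

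Mb21d1, which encodes the DNA sensor cGAS itself, showed no called change. It averaged -5.07 ± 0.60 after 7 Gy (SD, n = 9) and -4.77 ± 0.45 at 0 Gy (SD, n = 4) in KO-labelled blood, and -4.76 ± 0.15 after 7 Gy and -4.85 ± 0.43 at 0 Gy in WT blood (SD, n = 5 each). The difference had a 95% interval of -0.89 to 0.28 in KO-labelled blood and of -0.52 to 0.71 in WT blood, in the fit of all arrays. The highest irradiated KO-labelled value, -3.65, is that of the noisy replicate 3; without the 4 noisy arrays the KO-labelled difference was -0.69 and was called (limma adjusted p = 0.0204). It turned to 0.41 with normexp and to 0.17 with quantile normalization. A dimmer Mb21d1 probe gave 0.41 ± 0.40 in KO-labelled blood and 0.54 ± 0.42 in WT blood. That probe was well above background on 13 of 24 arrays.

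Aim2, the DNA sensor that assembles an inflammasome, lay at the edge of detection: it was well above background on 1 of 9 KO-labelled 7 Gy arrays, 2 of 5 KO-labelled 0 Gy arrays, 0 of 5 WT 7 Gy arrays and 2 of 5 WT 0 Gy arrays. KO-labelled blood averaged -7.54 ± 0.39 after 7 Gy (SD, n = 9), against -6.79 ± 0.52 at 0 Gy (SD, n = 4). This fall of 0.75 on the log2 scale was called (limma adjusted p = 0.027), but the sign turned to 0.62 under normexp background correction and the call was lost without KO-labelled 0 Gy replicate 2 (adjusted p = 0.132) or replicate 5 (adjusted p = 0.0843), or with the slide as a block (-0.47, adjusted p = 0.0698). In WT blood the 7 Gy arrays bound the level only from above and no fold is given.

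Samhd1 and Adar, the remaining brakes on sensing, moved downward in KO-labelled blood. Samhd1, which breaks down deoxynucleotides and so limits cytosolic DNA, was lowest at -1.89, median -1.06 and highest 0.20 in KO-labelled blood after 7 Gy, against 0.16, 0.39, 0.08, 0.15 and 0.53 at 0 Gy. In WT blood it was -1.05, -1.05, -0.76, -0.80 and -0.53 after 7 Gy, against -0.38, -0.19, -0.19, -0.27 and -0.04 at 0 Gy. The WT groups did not overlap, while KO-labelled 7 Gy replicate 9, at 0.20, lay among the unexposed arrays. The difference was -1.24 ± 0.25 in KO-labelled blood (limma adjusted p = 0.00037) and -0.62 ± 0.27 in WT blood (adjusted p = 0.0997). A dimmer Samhd1 probe, designed on another transcript, gave -0.96 ± 0.29 in KO-labelled blood and 0.14 ± 0.31 in WT blood. In the authors' deposited values the KO-labelled difference was -0.75 and was not called (adjusted p = 0.0778).

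Adar, which edits adenosine in double-stranded RNA so that MDA5 does not take it for foreign, had differences of opposite sign in the 2 genotypes. In KO-labelled blood it was lowest at -2.18, median -2.02 and highest -1.63 after 7 Gy, against -1.71, -0.72, -1.48, -1.68 and -1.83 at 0 Gy. In WT blood it was -1.60, -1.52, -1.52, -1.59 and -1.47 after 7 Gy, against -1.32, -2.02, -2.12, -2.12 and -2.07 at 0 Gy. Both pairs overlapped, the WT pair only through 0 Gy replicate 1, an array with noisy repeat spots. The difference was -0.53 ± 0.18 in KO-labelled blood (limma adjusted p = 0.0189), which is -0.27 relative to the median of all genes, and 0.39 ± 0.19 in WT blood (adjusted p = 0.154). The KO-labelled call was lost without KO-labelled 0 Gy replicate 2, whose level was -0.72 (adjusted p = 0.156), and the WT difference was called without WT 0 Gy replicate 1, at 0.54 (adjusted p = 0.0352). In all, the KO-labelled call was lost in 10 of 30 alternatives. The KO-labelled difference was -0.20 with the percentile over all probes (adjusted p = 0.37) and -0.28 with median scaling (adjusted p = 0.196). Quantile normalization gave -0.36 (adjusted p = 0.12) and normexp gave -0.094 (adjusted p = 0.79).

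**Figure D2:**
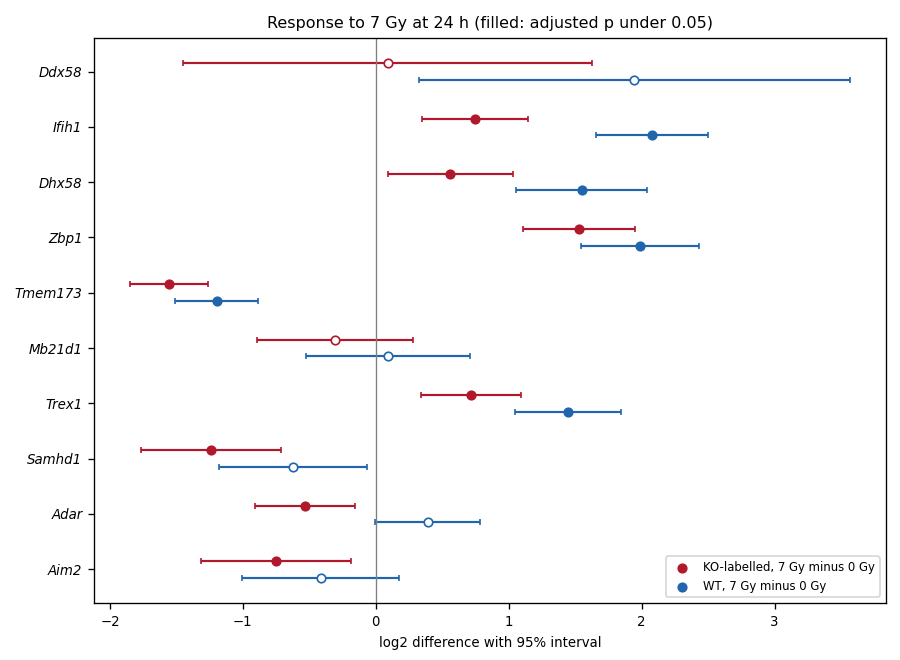
Log2 difference of 7 Gy minus 0 Gy for each gene (horizontal axis) with its 95% interval, in KO-labelled blood (red, upper) and WT blood (blue, lower); filled points passed an adjusted p of 0.05. Ifih1, Dhx58, Zbp1 and Trex1 lie right of 0 in both genotypes and Tmem173 lies left of 0 in both.

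Groups that did not overlap were also counted, which needs no fitted spread. In KO-labelled blood 3 of the 10 genes had groups that did not overlap, Zbp1 and Trex1 being higher after 7 Gy and Tmem173 lower, beside 24.7% of all genes in either direction. In WT blood there were 7, with Ddx58, Ifih1, Dhx58, Zbp1 and Trex1 higher and Tmem173 and Samhd1 lower, beside 28.6% of all genes.

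The response was then compared between genotypes, as the response of KO-labelled blood minus that of WT blood in the same fit. Ifih1, Dhx58 and Adar were called, all with a lower response in KO-labelled blood, and no gene had a higher one. The difference of responses was -1.33 ± 0.28 for Ifih1 (limma adjusted p = 0.0048), -0.99 ± 0.33 for Dhx58 (adjusted p = 0.0451) and -0.92 ± 0.26 for Adar (adjusted p = 0.0221). It was negative within each of the 5 slides for all 3 genes, from -1.70 to -0.61 for Ifih1, from -1.70 to -0.44 for Dhx58 and from -1.74 to -0.03 for Adar. The same held for Ddx58, Trex1 and Samhd1, which were not called. These slides hold arrays of the same fit, so their values are no separate evidence. Over all genes 12.6% had a lower response in KO-labelled blood and 3.08% a higher one, and 15.7% were called in all. The median was -0.67 for the 10 genes and -0.27 for all genes.

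Trex1 had a difference of responses of -0.73 ± 0.26 that just missed the threshold (limma adjusted p = 0.0628). Ddx58, at -1.85 ± 1.08, was too variable to place (adjusted p = 0.245), and its 95% interval ran from -4.09 to 0.38. For Zbp1 the difference was -0.46 ± 0.29 on the brighter probe (95% interval -1.07 to 0.15), and -1.48 ± 0.31 on the dimmer probe of the other transcript variant. The dimmer probes of Ddx58, Samhd1 and Adar gave -1.65 ± 0.38, -1.10 ± 0.43 and -1.39 ± 0.36. On their brighter or single probes Tmem173, at -0.36 ± 0.21 (95% interval -0.78 to 0.07), and Samhd1, at -0.61 ± 0.37 (95% interval -1.38 to 0.15), were not called. Neither were Mb21d1, at -0.40 ± 0.41, and Aim2, at -0.33 ± 0.39. The dimmer Mb21d1 probe gave -0.12 ± 0.58. With the slide as a block, Trex1 was called as well, at -0.70 (adjusted p = 0.0451). With all kept probes of a gene averaged, 5 of the 10 genes had a lower response in KO-labelled blood, Ddx58 and Zbp1 being added.

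These calls between genotypes depended on several settings. That of Dhx58 was lost in 23 of 39 alternatives, among them leaving out any of 14 single arrays (adjusted p from 0.051 to 0.0987), and that of Adar was lost without KO-labelled 0 Gy replicate 2 (adjusted p = 0.0537). With the percentile taken over all probes only Ifih1 remained called, and with quantile normalization none did; of all calls between responses, 19.7% were higher with the scaling used here, against 60.4% and 42.0% under these settings. Without WT 7 Gy replicates 3, 4 and 5, the arrays with hepatocyte sums of 142 to 154, none of the 10 genes was called, with Ifih1 at -0.95 (adjusted p = 0.0691), Adar at -0.90 (adjusted p = 0.105) and Dhx58 at -0.77 (adjusted p = 0.262). That fit kept only WT 7 Gy replicates 1 and 2, which correlated at a Pearson r of 0.997. Its calls over all genes fell as well, from 2471 to 1031. With near-identical arrays averaged, which left 2 samples in each WT group, no gene of all tested was called; Ifih1 was then at -1.05, Dhx58 at -0.996 and Adar at -0.65. The part of the hepatocyte signal in the differences between genotypes was not tested.

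**Figure D3:**
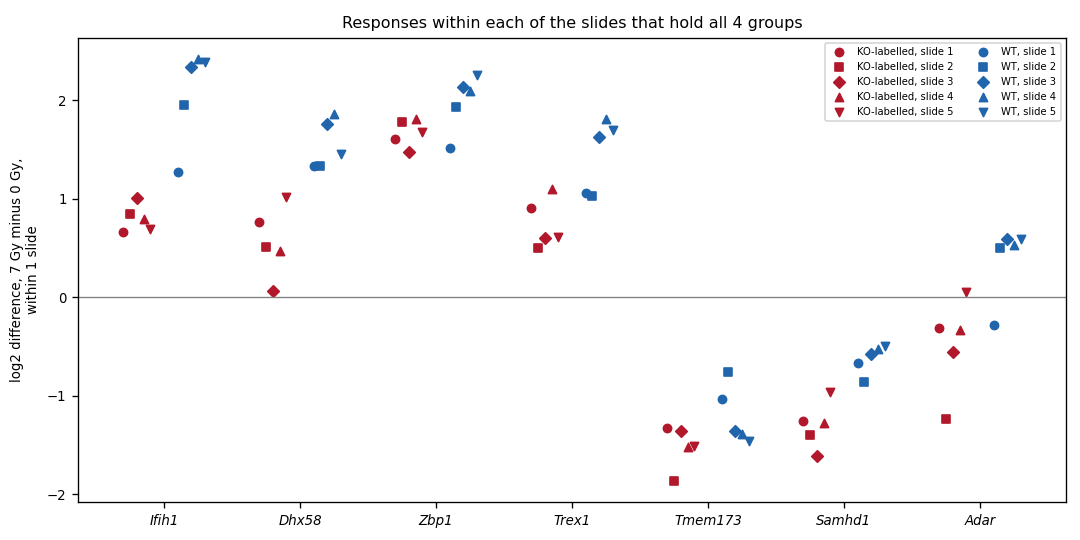
Log2 difference of 7 Gy minus 0 Gy within each of slides 1 to 5 (symbols), in KO-labelled blood (red, left) and WT blood (blue, right), for 7 of the genes. For Ifih1 the WT values of 1.27 to 2.42 lie above the KO-labelled values of 0.67 to 1.01 on each slide, while those of Zbp1 overlap.

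**Figure D4:**
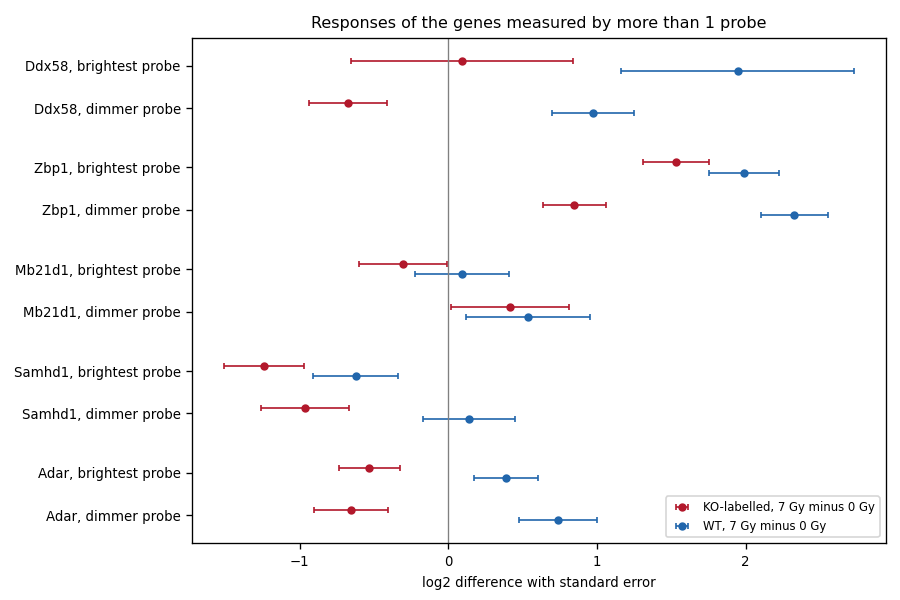
Log2 difference of 7 Gy minus 0 Gy with its standard error (horizontal axis) for each kept probe of the 5 genes with more than 1 kept probe, in KO-labelled blood (red, upper) and WT blood (blue, lower). The genotypes lie farther apart on the dimmer than on the brighter probes of Zbp1, Samhd1 and Adar, and less far apart on those of Ddx58 and Mb21d1.

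At 7 Gy itself, Ifih1 and Trex1 were lower in KO-labelled than in WT blood, and none of the 10 genes was called higher. With the slide as a block Ddx58 was lower too, at -1.88 (limma adjusted p = 0.0447). That value takes in -5.24 on slide 3, where the noisy KO-labelled replicate 3, at -6.42, was not well above background. Without the 4 noisy arrays Ddx58 was at -0.95 (adjusted p = 0.0212). The difference was -0.77 ± 0.18 for Ifih1, 1.71-fold lower (limma adjusted p = 0.00335), and -0.63 ± 0.17 for Trex1, 1.55-fold lower (adjusted p = 0.00954). Over all genes 22.7% were called, 18.2% lower and 4.45% higher, so 2 of 10 is near the background share. Adar, at -0.43 ± 0.17 (adjusted p = 0.0726), and Dhx58, at -0.56 ± 0.21 (adjusted p = 0.0604), missed the threshold. For Ddx58 and Adar the KO-labelled arrays lay wholly below the WT arrays, as did 5.32% of all genes (6.14% in either direction). Of all calls at 7 Gy, 19.6% were higher, against 48.1% when the percentile was taken over all probes, where Trex1 was no longer called (adjusted p = 0.0953). Within slides 1 to 5 Ifih1 was lower in KO-labelled blood by values from -1.22 to -0.51 and Trex1 by values from -1.23 to -0.20.

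The rise of Ifih1 and Trex1 in WT blood was uneven across arrays. Trex1 was 0.41 in WT 7 Gy replicates 1 and 2, whose hepatocyte sums were 10.4 and 10.5, and 1.02 to 1.19 in replicates 3 to 5; Ifih1 was -3.84 and -3.68 in replicates 1 and 2. The summed neutrophil markers were 52.6 and 54.7 in replicates 1 and 2 and 150, 150 and 167 in replicates 3 to 5, and the summed NK cell markers were 9.44 and 9.999 against 5.33, 5.46 and 6.14. In KO-labelled 7 Gy blood, where hepatocyte sums ran from 5.36 to 10.9, neutrophil sums from 13.5 to 41.4 and NK cell sums from 2.82 to 4.64, Trex1 ranged from -0.21 to 0.65. Without WT 7 Gy replicates 3 to 5 the difference at 7 Gy was -0.40 for Ifih1 (limma adjusted p = 0.353) and -0.21 for Trex1 (adjusted p = 0.661). Only the much alike replicates 1 and 2 then stood for WT 7 Gy, and calls over all genes fell from 3577 to 1159. Markers of NK cells and neutrophils were also lower in KO-labelled than in WT blood at 7 Gy, in 10 of 12 and 11 of 14 genes. Their part in these differences was not tested.

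At 0 Gy none of the 10 genes was called by limma between KO-labelled and WT blood, beside 0.291% of all genes, 0.209% higher and 0.0823% lower. At an unadjusted limma p under 0.05 there were 3, beside 9.36% of all genes: Ifih1 at 0.56 ± 0.22, Tmem173 at 0.37 ± 0.16 and Adar at 0.50 ± 0.20, each higher in KO-labelled blood, with adjusted p-values of 0.401, 0.458 and 0.424. For Tmem173 and Samhd1 the KO-labelled arrays lay wholly above the WT arrays, as did 7.29% of all genes, with 3.60% wholly below and 10.9% in all.

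**Figure D5:**
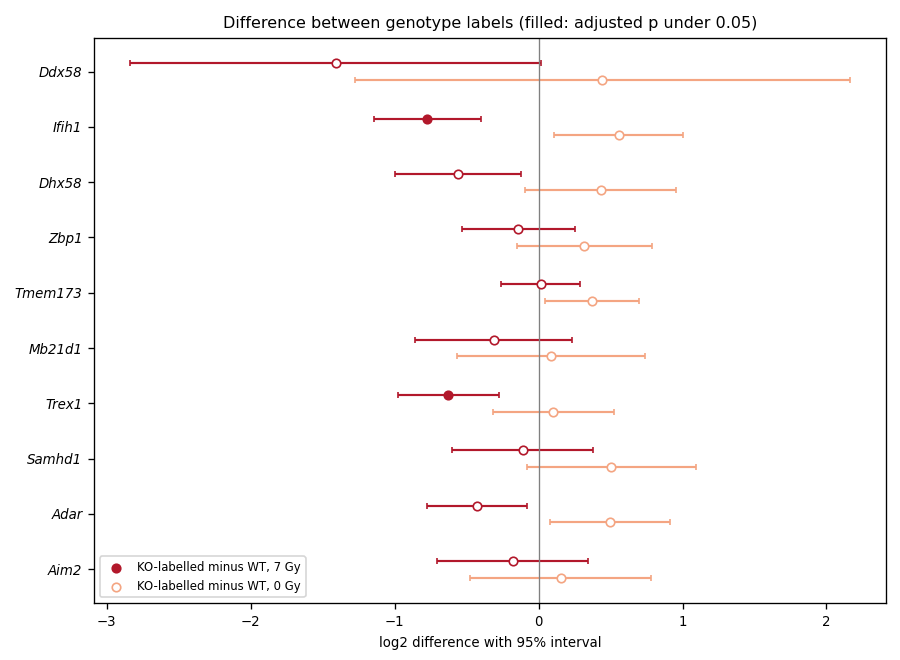
Log2 difference of KO-labelled minus WT blood for each gene (horizontal axis) with its 95% interval, at 7 Gy (dark red, upper) and at 0 Gy (light, lower); filled points passed an adjusted p of 0.05. At 7 Gy Ifih1 and Trex1 lie left of 0 and are filled, and at 0 Gy none is filled.

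Genes around the sensors were read from lists of the pathway. Their counts are to be read beside the shares over all genes: 12.2% rose and 34.8% fell in KO-labelled blood, 10.1% rose and 13.3% fell in WT blood, 12.6% had a lower response in KO-labelled blood, and 18.2% were lower there at 7 Gy. Among 16 other RNA sensors and effectors tested, 5 rose and 4 fell after 7 Gy in KO-labelled blood, and 7 rose and 1 fell in WT blood, with list medians of -0.01 and 0.30. Ifit3 rose by 2.21 ± 0.29 in KO-labelled blood (limma adjusted p = 2.62e-06) and by 5.62 ± 0.31 in WT blood (adjusted p = 1.04e-10). Oas2, whose enzyme product switches on RNase L, rose by 1.87 ± 0.30 in KO-labelled blood and by 3.98 ± 0.31 in WT blood. Oas1a of the same family rose by 2.09 ± 0.38 in KO-labelled blood and by 3.37 ± 0.40 in WT blood, and Oasl1 rose by 3.78 ± 0.33 in WT blood. Tlr7, an endosomal sensor of RNA, fell by 1.43 on the log2 scale in WT blood (adjusted p = 0.0116). The helicase genes Dhx36 and Dhx15 fell in KO-labelled blood, with differences of -1.62 and -1.39. The difference of responses was called for 7 of the 16, all lower in KO-labelled blood, including Ifit3 at -3.41 ± 0.42, Oasl1 at -2.96 ± 0.45 and Ifit1 at -2.43 ± 0.70. At 7 Gy itself 7 of the 16 were lower in KO-labelled blood.

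Among 28 other DNA sensors and inflammasome genes, 2 rose and 16 fell after 7 Gy in KO-labelled blood, and 1 rose and 5 fell in WT blood, with medians of -0.69 and -0.22. Ifi204, a DNA-binding member of the family of Aim2, was the one that rose in WT blood, by 1.77 ± 0.26 (limma adjusted p = 1.84e-05), and it rose by 0.71 ± 0.24 in KO-labelled blood (adjusted p = 0.0197). Its relatives Ifi209 and Ifi203 fell in KO-labelled blood, with differences of -1.52 and -1.23, as did Lrrfip1, a nucleic acid binding protein, at -1.37. Xrcc6, the Ku subunit that binds DNA ends, changed by -1.17 in KO-labelled blood and by -0.55 in WT blood. Of the 28, 4 had a lower response in KO-labelled blood and 6 were lower there at 7 Gy, both near the shares over all genes.

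Of 25 adaptors, kinases and transcription factors, 1 rose and 13 fell in KO-labelled blood, and 3 rose and 3 fell in WT blood. Irf7, the factor that amplifies interferon, differed by 0.38 ± 0.25 in KO-labelled blood (limma adjusted p = 0.221) and rose by 1.13 ± 0.26 in WT blood (adjusted p = 0.00303). Mlkl, the effector of necroptosis, rose by 1.47 ± 0.37 in KO-labelled blood and by 1.14 ± 0.38 in WT blood. Tbk1, the kinase used by both the RNA and DNA pathways, fell in both, with differences of -1.15 in KO-labelled and -0.63 in WT blood. Traf3, an adaptor ubiquitin ligase, fell likewise, with -1.51 in KO-labelled and -0.79 in WT blood. In this list 4 responses were lower in KO-labelled blood, and 7 of the 25 genes were lower there at 7 Gy, among them Myd88 at -1.24 ± 0.25 and Irf3 at -0.61 ± 0.17.

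Of 15 other nucleases and RNA-modifying enzymes, 1 rose and 8 fell in KO-labelled blood, and 0 rose and 3 fell in WT blood. The exonuclease gene Pld3 fell, with -0.86 in KO-labelled and -1.23 in WT blood, and so did Pld4, with -1.18 in KO-labelled and -1.70 in WT blood. Dnase1l1 was the one that rose, in KO-labelled blood, by 1.13 ± 0.17 (limma adjusted p = 1.32e-05). At 7 Gy 5 of the 15 were lower in KO-labelled blood, including Dnase2a, the lysosomal DNase, at -0.62 ± 0.15.

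Regulators of the sensors moved both ways. Of 28 tested, 5 rose and 10 fell in KO-labelled blood, and 6 rose and 7 fell in WT blood. Usp18, which removes ISG15 and dampens interferon signalling, rose by 1.33 ± 0.25 in KO-labelled blood (limma adjusted p = 0.000161) and by 2.83 ± 0.26 in WT blood (adjusted p = 4.4e-08). Tnfaip3, which encodes the brake A20, fell by 1.67 in KO-labelled blood on the log2 scale. The deubiquitinase gene Usp15 fell in both, with differences of -1.18 in KO-labelled and -2.56 in WT blood. The response was higher in KO-labelled blood for 4 of the 28 and lower for 7, including Trim25, the ubiquitin ligase that acts on RIG-I, at -1.58 ± 0.27.

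Among 21 interferons, receptors and signalling genes tested, 0 rose and 7 fell in KO-labelled blood, and 4 rose and 1 fell in WT blood. Those that rose in WT blood were Socs1, an inhibitor of cytokine signalling, by 2.08 ± 0.14, Ifng by 1.52 ± 0.29, Irf9 by 1.34 ± 0.23 and Stat2 by 1.19 ± 0.21. Irf9 and Stat2 are subunits of ISGF3, the factor through which type I interferon raises its target genes. In KO-labelled blood the receptor genes Ifnar1, Ifngr1 and Ifngr2 fell, with differences of -1.70, -1.29 and -1.25, and Irf1 fell by 1.07. Ifnb1 was on the array but did not pass the filter on dim probes. The response of 6 of the 21 was lower in KO-labelled blood, with Socs1 at -1.99 ± 0.20 (limma adjusted p = 8.03e-06), Stat2 at -1.61 ± 0.30 and Irf9 at -1.48 ± 0.31. The median difference of responses of the 6 lists ran from -1.22 in the RNA sensor list to -0.40 in the DNA sensor list, beside -0.27 over all genes.

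Over the 23 samples, levels of Ifih1, Dhx58, Zbp1 and Trex1 followed one another, with Pearson r from 0.87 to 0.92 between pairs. Tmem173 ran opposite to them, at r from -0.90 with Zbp1 to -0.70 with Dhx58, and alongside Samhd1 at 0.71. Mb21d1 had r between -0.37 and 0.14 with the other 9. These samples share groups, slides and arrays, so the correlations are descriptions. The 2 genes outside the list most like each member by Pearson r were Rtp4 and Oas2 for Ifih1 (both 0.95), Nr1h3 and Ifi35 for Dhx58 (0.93 and 0.92), and Oas1f and Bst2 for Zbp1 (0.98 and 0.97). For Trex1 they were Ifi204 and Dgcr6 (both 0.96), for Tmem173 Cdt1 and Nsmce4a (0.98 and 0.97), and for Samhd1 Mrfap1 and Osgep (0.96 and 0.95). For Ddx58 they were Snx20 and Mtpn (0.98 and 0.96), which rests in part on the 2 arrays at -6.42 and -6.57. Those for Adar were Atp5o and Vps36 (0.85 and 0.84), for Mb21d1 Gtf3c2 and Ccar2 (0.82 and 0.79), and for Aim2 Rbm12b1 and Dync1li1 (0.87 and 0.82).

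Promoter windows from RefSeq (GRCm38.p6), 250 bases before to 50 after a gene's start, were at hand for 7 of the 10 genes in 10 windows; Zbp1, Dhx58 and Tmem173 have no window in that table. They are shown because 4 of the genes rose together and interferon-raised genes often carry such letters. Each was searched on both strands for GAAA followed by any 2 bases and GAAA again, the core that ISGF3 and IRF factors bind, and for TTCNNNGAA, the core that STAT dimers bind. The first stood in the windows of Ifih1 and Ddx58 and in 3.44% of all 32851 windows; the second stood in 1 window each of Samhd1 and Adar and in 8.30% of all. Stretches of 30 bases on the gene's strand follow, with the match in capitals.
Ifih1, chr2:62646206-62646235, minus strand: gagaagagaatcGAAACAGAAAccgatctg
Ddx58, chr4:40239804-40239833, minus strand: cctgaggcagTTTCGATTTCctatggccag
Samhd1, chr2:157135312-157135341, minus strand: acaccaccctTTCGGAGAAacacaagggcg
Adar, chr3:89730730-89730759, plus strand: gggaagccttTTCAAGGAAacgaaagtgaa
The matches of Ifih1, Ddx58 and Adar begin 33, 3 and 23 bases after the start, the Ddx58 one being read on the other strand, and that of Samhd1 begins 235 bases before it. A match is only a run of letters, and its use in these cells was not measured.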

How the data were processed

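Blood RNA was hybridised to 24 one-colour Agilent arrays. The deposited scanner output gives each spot's intensity as processed by Agilent Feature Extraction (version 12.0.2 per the submitters' processing notes), which per the file headers was background-subtracted and spatially detrended, with no scaling between arrays, and probe coordinates in mm9. The dye field of 6 labels names another dye than the protocol's Cy3. A table of values that the authors deposited lists 12900 entries on a log2 scale, with 0 columns of samples outside the series; the files do not state its scale, and each column equalled log2 of the processed signal, raised to at least 10, plus a constant of 0 to 1.54 per array, within 0.01 for at least 98.5% of probes, with column medians of 5.75 to 7.18 and no centring of genes found.

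Each array's 75th percentile of the log2 processed signal, over 7857 probes well above background on all arrays, was subtracted. Spots flagged as outliers were left out and repeat spots averaged. A probe entered if it was well above background on 5 arrays or more, and the brightest stood for its gene. One limma (3.58.1, R 4.3.3) fit held all 4 groups; moderated tests were adjusted by Benjamini-Hochberg over 15787 genes, at 0.05. The limits of this precision are the numbers of arrays. The fit was tested on simulated data whose arrays were drawn independently, so that test says nothing of much alike arrays or shared slides. Same-numbered arrays share a slide per the headers, and 18 of 30 pairs of them had deviations correlated above 0.1 (range -0.23 to 0.71). The main fit nevertheless held no term for slide or replicate number, and its standard errors leave such sharing out. Fits with either as a block were run as alternatives. The 10 genes, the pathway and marker lists and the tests were chosen with earlier results of these data known. All 10 genes are named in every comparison; from each list, up to 4 with the largest called difference and signal above background on a whole group were named, and further ones were chosen after their values were seen. Alternatives covered background correction, scaling, filters, probes, blocks, single arrays and array groups. One gene of a pathway list is not reported here by name.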

Additional observations from a re-analysis of the deposited data

Results flagged for a closer look

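In 40 combinations of a gene and a group, 6 held a sample that stood apart from the others by Dixon's 95% criterion, where chance gives about 1 in 20. Ddx58 was at -6.42 in KO-labelled 7 Gy replicate 3 and at -6.57 in WT 0 Gy replicate 1. On the same 2 arrays, Mb21d1 stood high at -3.65 in KO-labelled 7 Gy replicate 3 and Adar stood high at -1.32 in WT 0 Gy replicate 1. Both arrays are among the 4 with noisy repeat spots. Zbp1 stood low at -2.08 in KO-labelled 7 Gy replicate 6, and Ifih1 stood high at -4.35 in KO-labelled 0 Gy replicate 5, an array whose hepatocyte sum, 5.62, was the highest of its group.

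The response to 7 Gy differed between KO-labelled and WT blood by the interaction test for 3 genes: by -1.33 for Ifih1, by -0.99 for Dhx58 and by -0.92 for Adar.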

How the results depend on the processing

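The counts of the 10 genes called were 8 for the KO-labelled response, 5 for the WT response, 3 for the difference of responses, 2 for KO-labelled against WT at 7 Gy and 0 at 0 Gy. In the same order they were 3, 4, 0, 0 and 0 with normexp background correction, 6, 5, 1, 1 and 0 with the percentile over all probes, 6, 5, 1, 2 and 0 with median scaling, and 6, 5, 0, 1 and 0 with quantile normalization. They were 5, 5, 1, 2 and 0 with no filter on dim probes, 8, 7, 5, 4 and 0 with the mean of all kept probes, and 5, 6, 0, 1 and 0 in the authors' deposited value table, which lists 9 of the genes. Without the 4 noisy arrays they were 7, 7, 2, 4 and 0. The exact permutation test, unadjusted and run on these 10 genes alone, gave 7, 8, 5 and 5 for the KO-labelled and WT responses, 7 Gy and 0 Gy. No share over all genes stands beside these permutation counts, and they cannot be compared with the adjusted ones. The smallest p that this test can give at 0 Gy is 0.00794. Without WT 7 Gy replicates 3 to 5 the WT response, the difference of responses and 7 Gy gave 5, 0 and 0. Averaging arrays that correlated at 0.99 or more, a setting chosen after seeing the data, gave 5, 3, 0, 0 and 0. With the slide as a block they were 7, 6, 4, 3 and 0. With the replicate number as a block they were 8, 6, 5, 3 and 0, with Samhd1 added in the WT response (adjusted p = 0.00268), Trex1 and Samhd1 in the difference of responses (0.0279 and 0.0139) and Dhx58 at 7 Gy (0.0103). Same-numbered arrays share a slide, and all pairs of replicates 3 and 5 had deviations correlated above 0.1, while pairs of replicates 1, 2 and 4 did so only in part. Leaving out single arrays gave 5 to 8, 5 to 6, 1 to 4, 2 to 4 and 0 to 0; the lowest for the KO-labelled response and the difference of responses, 5 and 1, came without KO-labelled 0 Gy replicate 2, and the 4 at 7 Gy without KO-labelled 7 Gy replicate 9. Ifih1 and Zbp1 in WT blood and Zbp1 and Tmem173 in KO-labelled blood were called under every alternative run for them.

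Over all genes, the calls in the main fit were 7420, 3699, 2471, 3577 and 46, in the same order. They fell to 1369, 749, 0, 234 and 1 with normexp. With the percentile over all probes they were 6552, 3476, 1470, 2805 and 19. Median scaling gave 6926, 3769, 1943, 3154 and 41, and quantile normalization gave 6652, 3326, 1094, 2587 and 33. No filter on dim probes gave 6446, 2776, 1034, 2510 and 10, and the mean of kept probes gave 7382, 3693, 2453, 3519 and 42. In the deposited table they were 5233, 2423, 449, 1602 and 14, and without the noisy arrays 7431, 4045, 1588, 3741 and 37. Without WT 7 Gy replicates 3 to 5 the WT response, the difference of responses and 7 Gy had 1637, 1031 and 1159 calls. With near-identical arrays averaged the calls fell to 5365, 517, 0, 0 and 0. The slide block raised them to 9493, 4393, 5164, 6002 and 99. The replicate block raised them to 10013, 5145, 6231, 6823 and 292. The counts of the 10 genes under each setting are to be read beside these totals. The main fit and both block fits tested 15787 genes, while the fits with no filter and on the deposited table tested other sets.

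Reversed differences were small or of genes not called, except Aim2 in KO-labelled blood. With normexp they were 0.62 for Aim2 and 0.41 for Mb21d1 in the KO-labelled response, 0.93 for Aim2 in the WT response, 0.062 for Samhd1 at 7 Gy, and -0.061 for Ddx58 and -0.079 for Aim2 at 0 Gy. With the percentile over all probes they were 0.023 for Mb21d1 in the KO-labelled response, 0.0066 for Aim2 in the difference of responses, 0.084, 0.046 and 0.11 for Zbp1, Aim2 and Samhd1 at 7 Gy, and -0.030 and -0.013 for Mb21d1 and Trex1 at 0 Gy. Median scaling gave 0.0047 for Zbp1 and 0.035 for Samhd1 at 7 Gy. Quantile normalization gave 0.17 and 0.10 for Mb21d1 in the KO-labelled response and the difference of responses, 0.022 for Samhd1 at 7 Gy, and -0.20 and -0.33 for Mb21d1 and Aim2 at 0 Gy. The mean of kept probes gave -0.29 for Ddx58 and 0.055 for Mb21d1 in the KO-labelled response and -0.18 for Mb21d1 at 0 Gy. In the authors' deposited table they were -0.11 for Ddx58 and 0.76 for Mb21d1 in the KO-labelled response, 0.17 for Samhd1 in the WT response, 0.23 for Mb21d1 in the difference of responses, 0.068 for Zbp1 at 7 Gy and -0.41 for Mb21d1 at 0 Gy. The deposited table lists only 9 probes of these genes, so a gene may be read there by another probe than its brightest. For Samhd1 in WT blood the dimmer probe gave 0.14 and the brighter one -0.62. For Ddx58 in KO-labelled blood the value was -0.53 with the slide or the replicate block, -0.065 with replicates 1 and 4 apart, -0.084 after averaging near-identical arrays and, added after seeing the data, -0.38 without KO-labelled 7 Gy replicates 6 to 9; at 0 Gy it was -0.24 without the noisy arrays. At 7 Gy Tmem173 was at -0.059 after averaging near-identical arrays, and without WT 7 Gy replicates 3 to 5 Tmem173, Zbp1 and Samhd1 were at -0.32, 0.045 and 0.10. The cause was not tested.

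Leaving out single arrays turned the sign of 8 differences that were not called, with ranges of -0.055 to 0.28 for Aim2 at 0 Gy, -0.38 to 0.86 for Ddx58 at 0 Gy, -0.053 to 0.26 for Mb21d1 at 0 Gy, -0.32 to 0.55 for Ddx58 in the KO-labelled response, -0.25 to 0.0073 for Samhd1 at 7 Gy, -0.056 to 0.13 for Tmem173 at 7 Gy, -0.19 to 0.0026 for Zbp1 at 7 Gy and -0.0016 to 0.27 for Mb21d1 in the WT response.

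No exact permutation test or fit of only the compared groups was run for the difference of responses, which needs all 4 groups. Dim signal limits Aim2, Mb21d1 and the dimmer Ddx58 probe most.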

Other observations

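Platelet and T cell genes moved on the same arrays as the sensors. Of 14 platelet markers, 13 rose after 7 Gy in KO-labelled blood, with a median difference of 1.76, and 9 rose in WT blood, with a median of 0.82. Of 15 T cell markers, 10 fell in KO-labelled blood and 5 fell in WT blood, with medians of -1.19 and -0.03. Of 12 NK cell markers, 2 rose and 7 fell in KO-labelled blood, against 3 that rose and 0 that fell in WT blood.

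Mean hepatocyte marker levels were -2.63 to -2.45 in KO-labelled 7 Gy replicates 1, 2, 3, 4, 6 and 8 and -3.43, -3.38 and -4.67 in replicates 5, 7 and 9, against -2.45 in each of WT 7 Gy replicates 1 and 2 and 1.33 to 1.40 in WT 7 Gy replicates 3 to 5.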
